A study of Mus musculus with 6 samples.

Results

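The genes described here encode core proteins of the spliceosome and their LSm relatives. They are the 46 genes of 27961 on the array whose name in the scanner files begins with Snrp, Sf3a, Sf3b, Prpf or Lsm followed by a letter or number code, and each was read by its probe of highest mean signal across the 6 arrays. The rule used gene names alone and no difference between groups. RNA came from mouse cells labelled as primordial germ cells, the embryonic founders of the germ line, grown in vitro for 12 days from V6.5 embryonic stem cells of mixed C57BL/6 and 129SV background. All 3 groups carried DAZL, a germ line RNA-binding protein, fused to GFP and V5 (Dazl-GFP-V5), and all were crosslinked with ultraviolet light. Input was total RNA with no antibody (2 arrays), the PABP1 IP was RNA recovered by an anti-PABP1 antibody, PABP1 being the protein that coats poly(A) tails (2 arrays), and the GFP IP was RNA recovered with an antibody to GFP, which binds the tagged DAZL (2 arrays). The labels name input and the PABP1 IP as the controls and do not say which promoter drives the tagged protein, nor that replicates came from separate cultures, so the p-values reflect no more than array-to-array spread, which may be technical.

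The spliceosome removes introns from pre-mRNA and is assembled from small nuclear ribonucleoproteins (snRNPs), each a small nuclear RNA with proteins. The Sm proteins form a ring around the U1, U2, U4 and U5 RNAs, and LSM2 to LSM8 form a like ring on the U6 RNA. The U1 snRNP recognises the 5′ splice site, the U2 snRNP with its SF3A and SF3B complexes binds at the branch point, and the U4/U6.U5 tri-snRNP, which holds several PRPF proteins, brings in the catalytic core. The arrays measured the mRNAs of these proteins, and an IP here reports how much of an mRNA, relative to other mRNAs, came down with PABP1 or DAZL, not the amount or activity of the protein.

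Each array read 43379 spots, 41.5% to 52.6% of them well above background and 0 saturated, and the number of arrays limits the precision. All 46 genes were among the 14973 genes tested, and 44 were well above background on all 6 arrays. Of the others, Prpf38b was dim, and the Sf3b3 spot on GFP IP replicate 2 was an outlier and was left out, so that its GFP IP value rests on 1 array. Replicates of the members differed by a median of 0.14 (input), 0.22 (PABP1 IP) and 0.25 (GFP IP) on the log2 scale. One slide carried the 2 inputs with replicate 1 of the PABP1 IP and replicate 2 of the GFP IP, and another slide carried the other 2 arrays. As a check of the labels, the GFP IP exceeded input for Dazl mRNA by 3.78 ± 0.27 (adjusted p = 0.00146). In input, 9 of the 10 germ cell markers on the array were well above background, Ddx4 being the exception, and so were 7 of 8 cardiac and smooth muscle markers, 3 of 5 neural, 2 of 6 endothelial and blood and 1 of 6 visceral endoderm markers.

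Values are given as scaled signal, the processed signal divided by the 75th percentile of its array, and only values of the same probe are compared. Differences are log2 differences of scaled signal ± the standard error from limma (n = 2 arrays per group), and p-values are limma's, adjusted by Benjamini-Hochberg over all genes tested. "Higher" and "lower" mean an adjusted p under 0.05, and they are relative to the 75th percentile, since the arrays do not give absolute amounts of RNA.

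The first comparison, of the PABP1 IP with input, asks which mRNAs came down with the poly(A)-binding protein. Most Sm and LSm mRNAs were higher. Of the U1 genes 4 of 6 and of the tri-snRNP and later PRPF genes 6 of 10 were lower, which became 3 and 4 with scaling to the median of all probes and 0 in both with spike-in scaling. Of the 46 members 22 were higher, against 30.4% of all genes tested, 14 were lower, against 23.5%, and 10 were not past the threshold. The largest difference upwards was 3.03 (Snrpn), and the median was 0.61 against 0.13 for all genes. The arrays of the 2 groups did not overlap for 44 of 46 members, against 78.4% of all genes. With scaling to spike-in controls, which moved the median of all genes to 2.40, 39 members were higher and 0 lower. Without input replicate 1, 9 members were lower instead of 14. Of the 36 calls 26 held with any 1 array left out.

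Set against input, the GFP IP asks which mRNAs came down with tagged DAZL. Of the 46 members 19 were higher, against 18.2% of all genes, 13 were lower, against 37.2%, and 14 were not past. The arrays of the 2 groups did not overlap for 42 of 46 members, against 83% of all genes. The median was -0.02 against -0.52 for all genes, and 31 members lay above the median of all genes. The splits of higher to lower members were 21 to 6 after cyclic loess, 20 to 5 with scaling to the median of all probes and 20 to 0 with spike-in scaling. Without input replicate 1 there were 6 higher and 5 lower, without input replicate 2 there were 7 and 6, and without GFP IP replicate 1 there were 11 higher and 10 lower. Only 9 of the 32 calls held with any 1 array left out, those of Lsm1, Lsm3, Lsm6 and Prpf18 (higher) and of Prpf31, Prpf39, Prpf6, Snrp1c and Snrp70 (lower). All 7 tested cardiac and smooth muscle markers were lower in the GFP IP than in input, and so were all 7 against the PABP1 IP, with medians of -1.36 and -1.44. Their summed scaled signal was 76.5 and 92.7 in input, 169 and 184 in the PABP1 IP and 28 and 37.9 in the GFP IP. Myh6, the other marker of that list, was not well above background on either input array. In the PABP1 IP against input 1 of these 7 markers was higher and 1 lower. The other marker lists were mixed. In the GFP IP against input 5 of 9 tested germ cell markers were higher and 2 lower. The 3 neural and the 3 endothelial and blood markers each had 1 higher and 1 lower, and the 2 visceral endoderm markers 0 and 0. Between the IPs the germ cell markers had 4 higher and 3 lower, neural 1 and 0, endothelial and blood 1 and 1, and visceral endoderm 0 and 1. The part of these markers' cells in the members' differences was not tested. Less of an mRNA in an IP and fewer of the cells that make it cannot be told apart.

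The GFP IP was also compared with the PABP1 IP, the antibody control. Of the 46 members 9 were higher, against 21.9% of all genes, 19 were lower, against 42.1%, and 18 were not past. The median was -0.17 against -0.61 for all genes, and the arrays did not overlap for 36 of 46 members, against 81.6% of all genes. The split of higher to lower members was 21 to 13 after quantile normalization, 21 to 12 after cyclic loess, 11 to 12 with the median of all probes and 3 to 31 with spike-in scaling. Within slide 1 the members' median was -0.37, against -0.64 for all genes, and within slide 2 it was -0.11, against -0.56. Of the 45 members measured on both slides 39 had the same sign on both, a share that was not computed for all genes. The 3 comparisons share arrays, so that their values are set side by side below and are not independent of each other. The counts and medians of the role groups below are read against the same shares and medians of all genes.

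**Figure D1:**
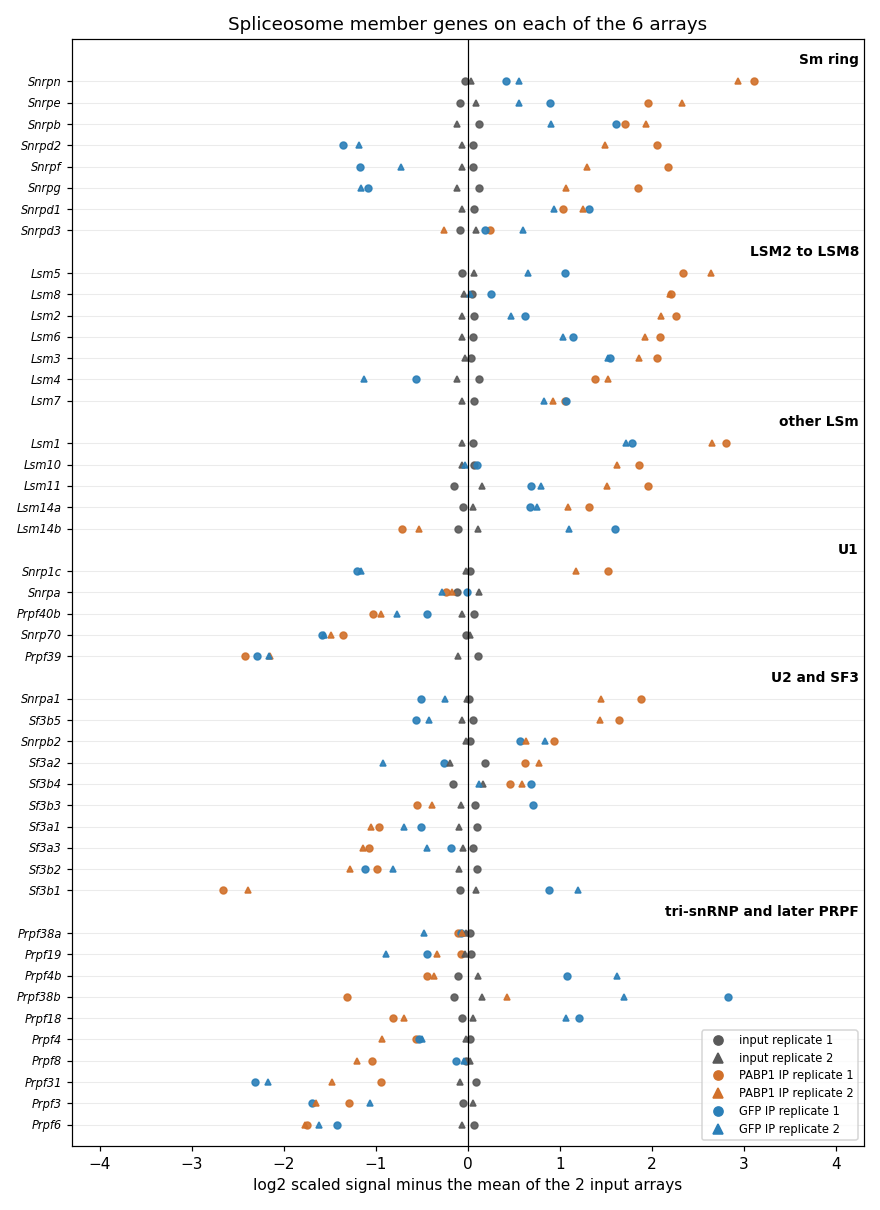
Log2 scaled signal of 45 of the 46 members on the 6 arrays (x axis), minus the mean of its 2 input arrays, by role group and, within it, by the mean of the PABP1 IP arrays. Grey marks are input, orange marks the PABP1 IP and blue marks the GFP IP, with circles for replicate 1 and triangles for replicate 2. The PABP1 IP arrays of all 7 LSM2 to LSM8 genes lie to the right of input, whereas those of Prpf39 and Sf3b1 lie far to the left; the scale is relative to the 75th percentile of each array, and spike-in scaling would move the PABP1 IP marks to the right.

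The 8 Sm ring genes were mostly higher in the PABP1 IP. Their medians relative to all genes were 1.62 (PABP1 IP), 0.96 (GFP IP) and -1.37 (between the IPs). Of all genes 30.4% were higher in the PABP1 IP, and 18.2% higher and 37.2% lower in the GFP IP. Between the IPs 21.9% were higher and 42.1% lower. Of the 8 ring genes 7 were higher in the PABP1 IP than in input, 0 lower and 1 not past. Their median was 1.75, and 0.98 to 4.02 under the 4 other scalings. Without input replicate 2 only 4 were higher. In the GFP IP the ring was divided: against input 4 were higher, 2 lower and 2 not past (median 0.44, with 0 lower after cyclic loess, with the median of all probes or under spike-in scaling). Against the PABP1 IP 0 were higher, 5 lower and 3 not past (median -1.98, and -3.23 to -0.76 under the 4 other scalings), with 2 higher after quantile normalization or cyclic loess. The count of higher genes against input was 1 without input replicate 1, 0 without input replicate 2 and 2 without GFP IP replicate 1, and the count of lower genes was 0, 1 and 1.

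Snrpn encodes the SmN protein, a close relative of SmB that takes its place in neural tissue. Its scaled signal was 0.638 and 0.666 in input, 5.63 and 5.01 in the PABP1 IP and 0.867 and 0.957 in the GFP IP. The PABP1 IP arrays stood far above the other four. The gene was 8.14-fold higher in the PABP1 IP than in input (3.03 ± 0.16, adjusted p = 0.000863), the largest difference of any member in that direction, and 5.83-fold lower in the GFP IP than in the PABP1 IP (-2.54 ± 0.16, adjusted p = 0.000457). A second Snrpn probe gave 3.51 and -2.50 for these differences, and 1.01 ± 0.17 (adjusted p = 0.00675) in the GFP IP against input. Against input the GFP IP value was 0.48 ± 0.16 (adjusted p = 0.0492), a call lost with each array left out in turn, at adjusted p = 0.0585 without either PABP1 IP array and 0.0975 to 0.215 without an input or GFP IP array. Normexp background, no filter on dim probes, slide 1 alone and a replicate block also ended it.

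Snrpb, which encodes SmB and its splice form SmB', had scaled signals of 9.28 and 7.90 in input, 28.1 and 32.9 in the PABP1 IP and 26.1 and 16.0 in the GFP IP. Both IPs lay above input, and they did not overlap each other. The difference from input was 1.83 ± 0.28 in the PABP1 IP (adjusted p = 0.00438). It was 1.25 ± 0.28 in the GFP IP (adjusted p = 0.0153; 0.0601 without input replicate 1 and 0.0803 without input replicate 2). The difference between the IPs was -0.57 ± 0.28 (adjusted p = 0.124; 0.0294 without GFP IP replicate 1). Snrpb and Snrpn have closely similar coding sequences, and how far each probe reads the other transcript was not tested.

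Snrpd2, Snrpf and Snrpg, for the ring proteins SmD2, SmF and SmG, had the opposite sign in the IPs. Snrpd2 was at 80.3 and 74.1 in input, 321 and 217 in the PABP1 IP and 30.1 and 34.0 in the GFP IP. Snrpf was at 133 and 123 in input, 578 and 312 in the PABP1 IP and 56.7 and 76.7 in the GFP IP. For both genes the PABP1 IP arrays were the highest and the GFP IP arrays the lowest, with no overlap of any groups. Snrpd2 was higher in the PABP1 IP than in input (1.77 ± 0.23, adjusted p = 0.0028) and lower in the GFP IP than in input (-1.27 ± 0.23, adjusted p = 0.00851; 0.0579 without input replicate 1, and not past after cyclic loess or under scaling to the median of all probes or to spike-in controls). Between the IPs it was 8.25-fold lower in the GFP IP (-3.04 ± 0.23, adjusted p = 0.000517), the largest fall of any member there. Snrpf differed by 1.73 ± 0.34 in the PABP1 IP (adjusted p = 0.0095; 0.0542 without input replicate 2), by -0.95 ± 0.34 in the GFP IP (adjusted p = 0.0609; 0.0227 without either PABP1 IP array) and by -2.69 ± 0.34 between the IPs (adjusted p = 0.00168). A second Snrpf probe gave -0.82 ± 0.16 (adjusted p = 0.0113) in the GFP IP against input. For Snrpg the differences in the PABP1 IP, in the GFP IP and between the IPs were 1.46 ± 0.29, -1.12 ± 0.29 and -2.58 ± 0.29. The first of them was at adjusted p = 0.0102 (0.0624 without input replicate 2), the second at 0.0242 (0.073 to 0.121 without an input or GFP IP array, and not past with normexp background or under each of the 4 other scalings) and the third at 0.00118.

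Snrpe, for SmE, was at 9.59 and 10.9 in input, 39.8 and 51.4 in the PABP1 IP and 18.9 and 15.0 in the GFP IP, so that the GFP IP arrays lay between the other groups. It was 4.42-fold higher in the PABP1 IP than in input (2.14 ± 0.22, adjusted p = 0.00145) and 2.68-fold lower in the GFP IP than in the PABP1 IP (-1.42 ± 0.22, adjusted p = 0.0032; not past after cyclic loess or with the median of all probes). Its GFP IP difference from input was 0.72 ± 0.22 (adjusted p = 0.0379; 0.101 to 0.179 without either input array or GFP IP replicate 1, and not past with no filter on dim probes, within slide 1 or with a replicate block). Snrpd1, for SmD1, was at 11.3 and 10.3 in input, 22.1 and 25.7 in the PABP1 IP and 27.0 and 20.5 in the GFP IP. Both IPs stood above input and overlapped each other. The differences from input were 1.14 ± 0.20 (adjusted p = 0.00721) and 1.13 ± 0.20 (adjusted p = 0.0082), and without input replicate 2 the p-values were 0.053 and 0.0558. The difference between the IPs was -0.02 ± 0.20 (adjusted p = 0.943). Snrpd3, for SmD3, was the ring gene with no call by its brightest probe. Its scaled signal was 68.7 and 77.7 in input and 86.6 and 60.9 in the PABP1 IP, which overlapped (-0.01 ± 0.25, adjusted p = 0.98). The dimmer Snrpd3 probes gave 0.85 and 0.40 in that comparison. By the brightest probe the GFP IP difference from input was 0.39 ± 0.25 (adjusted p = 0.233). It was past the threshold under each of the 4 other scalings, at 0.90 to 1.41. The dimmer probes were past the threshold there, at 1.08 ± 0.32 (adjusted p = 0.0361) and 1.13 ± 0.32 (adjusted p = 0.0309).

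The LSM2 to LSM8 genes encode the ring that binds the end of the U6 RNA. Their medians relative to all genes were 1.87 (PABP1 IP), 1.37 (GFP IP) and -1.02 (between the IPs). The shares of all genes were 30.4% higher in the PABP1 IP, and 18.2% higher and 37.2% lower in the GFP IP. Between the IPs they were 21.9% higher and 42.1% lower. All 7 were higher in the PABP1 IP than in input, with a median of 2.0 that was 1.54 to 4.27 under the 4 other scalings. The count was 5 after quantile normalization and 6 after cyclic loess or without input replicate 2. In the GFP IP against input 5 were higher, 1 lower and 1 not past (median 0.85), with 3 higher without input replicate 1 or without GFP IP replicate 1, 2 higher without input replicate 2 and 0 lower without input replicate 1, input replicate 2 or GFP IP replicate 2 and under each of the 4 other scalings. Against the PABP1 IP 5 were lower, 0 higher and 2 not past (median -1.63), while quantile normalization gave 2 higher and 2 lower and cyclic loess 2 higher and 3 lower.

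Lsm5 was at 23.0 and 25.3 in input, 122 and 151 in the PABP1 IP and 50.2 and 37.8 in the GFP IP, the highest PABP1 IP difference of the U6 ring (2.49 ± 0.22, adjusted p = 0.00113). It was also higher in the GFP IP (0.85 ± 0.22, adjusted p = 0.0228; 0.0802 to 0.122 without either input array or GFP IP replicate 1, and not past with a replicate block), and lower in the GFP IP than in the PABP1 IP (-1.64 ± 0.22, adjusted p = 0.00196; not past after quantile normalization or cyclic loess). Lsm8, the subunit that sets the nuclear ring apart from the cytoplasmic one, was at 7.58 and 7.21 in input, 34.3 and 34.0 in the PABP1 IP and 8.80 and 7.48 in the GFP IP. The GFP IP overlapped input and the PABP1 IP did not. Lsm8 was 4.62-fold higher in the PABP1 IP than in input (2.21 ± 0.16, adjusted p = 0.00094), it differed by 0.13 ± 0.16 between the GFP IP and input (adjusted p = 0.501), and it was 4.21-fold lower in the GFP IP than in the PABP1 IP (-2.07 ± 0.16, adjusted p = 0.000523).

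Lsm4, whose protein has a long tail rich in arginine and glycine, was at 327 and 277 in input, 782 and 863 in the PABP1 IP and 203 and 137 in the GFP IP. It was the ring gene of this set that was lower in the GFP IP than in input (-0.85 ± 0.24, adjusted p = 0.0311), and the call was lost without input replicate 1 (0.154), input replicate 2 (0.0819) or GFP IP replicate 2 (0.0943), and with normexp background, with no filter on dim probes, after quantile normalization or with the median of all probes, while its sign turned after cyclic loess and spike-in scaling. Between the IPs it was 4.92-fold lower in the GFP IP (-2.30 ± 0.24, adjusted p = 0.000953; not past after quantile normalization). Lsm3 was at 39.2 and 37.7 in input, above 100 on all 4 IP arrays, and both IPs stood apart from input (1.96 ± 0.15, adjusted p = 0.000993, and 1.53 ± 0.15, adjusted p = 0.00219). Lsm6 was higher by 2.0 ± 0.16 in the PABP1 IP (adjusted p = 0.001) and by 1.08 ± 0.16 in the GFP IP (adjusted p = 0.00448). The GFP IP calls of Lsm3 and Lsm6 held with any 1 array left out. Lsm2 (2.18 ± 0.16) and Lsm7 (0.99 ± 0.17) were also higher in the PABP1 IP, Lsm7 not without input replicate 2, after quantile normalization or after cyclic loess.

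The other LSm genes act outside the U6 ring. Against input, 4 of 5 were higher in the PABP1 IP (median 1.73, and 1.26 to 4.00 under the 4 other scalings) and 4 of 5 in the GFP IP (median 0.73), with 0 lower and 1 not past in each. The GFP IP count was 1 without input replicate 1 and 2 without input replicate 2, GFP IP replicate 1 or GFP IP replicate 2. Against the PABP1 IP 1 was higher and 4 were lower (2 lower without GFP IP replicate 1 and after quantile normalization or cyclic loess, 1 lower with the median of all probes). Of all genes 21.9% were higher and 42.1% lower there, and against input 30.4% were higher in the PABP1 IP and 18.2% in the GFP IP. The group's medians relative to all genes were 1.6 (PABP1 IP), 1.26 (GFP IP) and -0.36 (between the IPs). The last was 0 after quantile normalization and -0.02 after cyclic loess.

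Lsm1, which replaces LSM8 in the cytoplasmic ring that acts in mRNA decay, was at 8.54 and 7.84 in input, 57.0 and 51.4 in the PABP1 IP and 28.1 and 27.0 in the GFP IP. The groups lay far apart, with the GFP IP in the middle. The gene was 6.62-fold higher in the PABP1 IP (2.73 ± 0.16, adjusted p = 0.000863) and 3.37-fold higher in the GFP IP (1.75 ± 0.16, adjusted p = 0.00183) than in input, and both calls held under every alternative tried. The difference between the IPs was -0.97 ± 0.16 (adjusted p = 0.00375), and it was not past the threshold after quantile normalization, after cyclic loess or with the median of all probes. Lsm10 and Lsm11 encode the LSm proteins of the U7 snRNP, which processes histone mRNAs. Lsm10 was at 20.6 and 18.7 in input, 71.0 and 60.3 in the PABP1 IP and 21.1 and 19.3 in the GFP IP, so that the PABP1 IP alone stood apart (1.74 ± 0.17, adjusted p = 0.00136 against input). Lsm11 was higher by 1.73 ± 0.22 in the PABP1 IP (adjusted p = 0.00251) and by 0.73 ± 0.22 in the GFP IP (adjusted p = 0.0373; 0.0806 to 0.189 without an input or GFP IP array, and not past with no filter on dim probes or with a replicate block).

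Lsm14a and Lsm14b encode LSm proteins of cytoplasmic mRNA granules. Lsm14b was at 1.46 and 1.70 in input, 0.952 and 1.09 in the PABP1 IP and 4.76 and 3.37 in the GFP IP. The GFP IP arrays were the highest and the PABP1 IP arrays the lowest. The gene was 3.93-fold higher in the GFP IP than in the PABP1 IP (1.98 ± 0.23, adjusted p = 0.00126; not past with spike-in scaling) and 2.55-fold higher than in input (1.35 ± 0.23, adjusted p = 0.00654; 0.0502 without input replicate 1). A second, dimmer Lsm14b probe gave 0.25 and 0.39 for these differences and was not past the threshold. Lsm14a was at 1.67 and 1.78 in input, 4.3 and 3.67 in the PABP1 IP and 2.73 and 2.90 in the GFP IP. It was higher by 1.21 ± 0.16 in the PABP1 IP (adjusted p = 0.00304) and by 0.71 ± 0.16 in the GFP IP (adjusted p = 0.0169; 0.0545 to 0.11 without an input or GFP IP array).

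**Figure D2:**
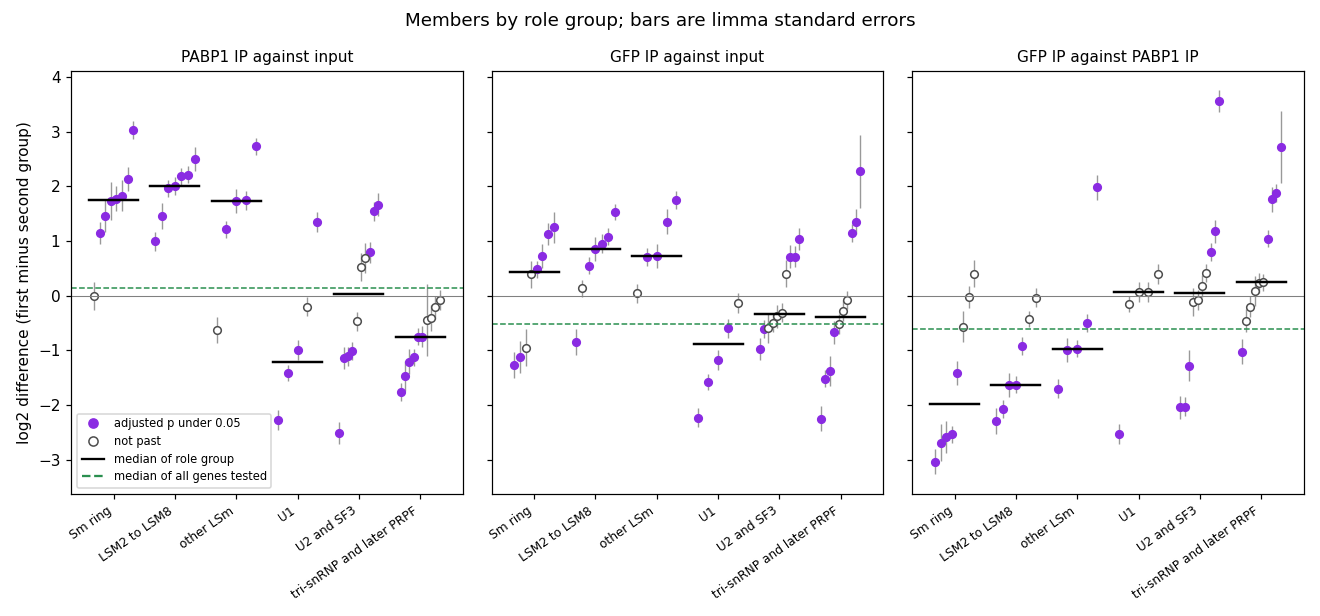
Log2 difference of 45 of the 46 members (y axis) in the PABP1 IP against input, the GFP IP against input and the GFP IP against the PABP1 IP, by role group. Bars on the points are limma standard errors, filled points have an adjusted p under 0.05, black lines are the medians over all members of a role group and the green dashed line is the median of all genes tested. In the left panel the medians of the Sm and LSm groups lie between 1.73 and 2.0 and those of the U1 and PRPF groups at -1.21 and -0.75, the latter turning positive with spike-in scaling.

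Of the 6 genes of the U1 snRNP and its associated factors, 4 were lower than input in each IP, a count that moved with the scaling. Of all genes 23.5% were lower in the PABP1 IP and 37.2% in the GFP IP. The group's medians relative to all genes were -1.34 (PABP1 IP), -0.37 (GFP IP) and 0.67 (between the IPs). With normexp background the first 2 were -0.63 and 0.11, and with no filter on dim probes -0.73 and 0.18. In the PABP1 IP 1 of the 6 was higher and 1 not past (median -1.21). There 5 were lower after quantile normalization or cyclic loess and 3 under scaling to the all-probe median. With spike-in scaling the median was 1.06, with 0 lower. The GFP IP had 0 higher and 2 not past (median -0.89, with 3 lower after quantile normalization or cyclic loess, 2 lower under scaling to the all-probe median, and 0.13 with 0 lower with spike-in scaling). Between the IPs 1 was higher, 1 lower and 4 not past (median 0.06), with 4 higher after quantile normalization or cyclic loess and 4 lower with spike-in scaling.

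Prpf39, a U1-associated splicing factor, was at 1.12 and 0.959 in input, 0.193 and 0.234 in the PABP1 IP and 0.212 and 0.231 in the GFP IP. It was lower than input in the PABP1 IP (-2.28 ± 0.18, adjusted p = 0.00102) and in the GFP IP (-2.23 ± 0.18, adjusted p = 0.0017), and the IPs overlapped. A second Prpf39 probe gave -3.64 and -2.07 against input and, between the IPs, 1.57 ± 0.31 (adjusted p = 0.00797), where the brightest gave 0.06. With spike-in scaling the brightest probe was at -0.02 and -1.21 and was not past the threshold.

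Snrp70, now named Snrnp70, encodes the U1 protein that many splicing regulators contact. Its scaled signal was 261 and 267 in input, 103 and 93.8 in the PABP1 IP and 87.3 and 89.6 in the GFP IP. Both IPs lay well below input. The differences from input were -1.42 ± 0.15 (adjusted p = 0.00157) and -1.58 ± 0.15 (adjusted p = 0.00199), and spike-in scaling turned the first to 0.84 and left the second at -0.56, not past the threshold. Snrp1c, now named Snrpc and encoding the C protein of U1, went the other way in the PABP1 IP: it was at 77.0 and 75.1 in input, 218 and 171 in the PABP1 IP and 33.0 and 34.0 in the GFP IP. It was higher in the PABP1 IP than in input (1.35 ± 0.18, adjusted p = 0.0029), lower in the GFP IP than in input (-1.18 ± 0.18, adjusted p = 0.00481; not past with the median of all probes or spike-in scaling) and 5.77-fold lower in the GFP IP than in the PABP1 IP (-2.53 ± 0.18, adjusted p = 0.000478). Snrpa, for the A protein of U1, was not past the threshold in any comparison by its brightest probe, at -0.20 ± 0.18 in the PABP1 IP against input (adjusted p = 0.395). Its dimmer probes gave 1.57, 1.54 and 0.94 there, all past the threshold, so that the direction of Snrpa is not settled by these probes. Prpf40b was lower in the PABP1 IP by 0.99 on the log2 scale (-0.99 ± 0.18, adjusted p = 0.00784), a call lost without input replicate 1 or under all-probe median scaling. Spike-in scaling turned it to 1.28.

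The 10 genes of the U2 snRNP and of SF3A and SF3B showed no common direction. Of all genes 30.4% were higher and 23.5% lower in the PABP1 IP, and 18.2% higher and 37.2% lower in the GFP IP. The group's medians relative to all genes were -0.11 (PABP1 IP), 0.18 (GFP IP) and 0.66 (between the IPs). Against input, 3 were higher, 4 lower and 3 not past in the PABP1 IP (median 0.03, with 9 higher and 0 lower with spike-in scaling), and 3 were higher, 2 lower and 5 not past in the GFP IP (median -0.34, but 0.14 to 0.68 with 0 lower after cyclic loess, with the median of all probes and under spike-in scaling). The GFP IP counts were 0 and 0 without input replicate 1, 1 and 0 without input replicate 2, 2 and 0 without GFP IP replicate 1, and 1 and 1 without GFP IP replicate 2. Between the IPs 3 were higher, 3 lower and 4 not past (median 0.04), with 6 higher after quantile normalization, 5 after cyclic loess and 1 with spike-in scaling.

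The large SF3B1 subunit, the branch point scaffold of the U2 snRNP, had the widest gap between the IPs. Sf3b1 was at 0.741 and 0.836 in input, 0.125 and 0.150 in the PABP1 IP and 1.45 and 1.80 in the GFP IP. The GFP IP was the highest group and the PABP1 IP the lowest, without overlap. It was 11.8-fold higher in the GFP IP than in the PABP1 IP (3.56 ± 0.20, adjusted p = 0.000457), 5.75-fold lower in the PABP1 IP than in input (-2.52 ± 0.20, adjusted p = 0.000988) and, in the GFP IP, 2.06-fold above input (1.04 ± 0.20, adjusted p = 0.00948; 0.0691 without input replicate 1, and not past with the mean of the probes). With spike-in scaling the fall in the PABP1 IP was -0.26 and not past the threshold. A second Sf3b1 probe gave 1.16 and -1.79 for the first pair of differences and -0.64 ± 0.17 (adjusted p = 0.0263) for the last, so that the order of the IPs was the same with both probes and the sign of the GFP IP against input was not.

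Among the other U2 genes, Snrpa1 and Sf3b5 had the PABP1 IP as their highest group. Snrpa1, for the A' protein of U2, was at 9.84 and 9.77 in input, 36.0 and 26.7 in the PABP1 IP and 6.90 and 8.22 in the GFP IP, and Sf3b5, the smallest SF3B subunit, was at 45.4 and 41.8, 136 and 117, and 29.3 and 32.5. For both the PABP1 IP arrays lay above input and the GFP IP arrays below it, the latter by differences that were not past the threshold (-0.38 ± 0.21, adjusted p = 0.171, for Snrpa1 and -0.50 ± 0.17, adjusted p = 0.053, for Sf3b5). Snrpa1 was higher in the PABP1 IP (1.66 ± 0.21, adjusted p = 0.00248) and 4.12-fold lower in the GFP IP than in the PABP1 IP (-2.04 ± 0.21, adjusted p = 0.000921). Sf3b5 was higher in the PABP1 IP (1.54 ± 0.17, adjusted p = 0.00175) and 4.09-fold lower in the GFP IP than in the PABP1 IP (-2.03 ± 0.17, adjusted p = 0.000564). Snrpb2, for the B'' protein of U2, differed from input by 0.79 ± 0.19 in the PABP1 IP (adjusted p = 0.0197; 0.075 to 0.104 without either input array or PABP1 IP replicate 1, and not past after quantile normalization, after cyclic loess or with no filter on dim probes) and by 0.71 ± 0.19 in the GFP IP (adjusted p = 0.0281; 0.103 to 0.122 without either input array or GFP IP replicate 2, and not past with no filter on dim probes or with a replicate block). Its IPs overlapped each other (-0.08 ± 0.19, adjusted p = 0.721), and a second Snrpb2 probe gave 0.14 between them.

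Of the larger SF3 subunits, Sf3a1 was at 23.0 and 20.0 in input, 11 and 10.3 in the PABP1 IP and 15.1 and 13.2 in the GFP IP, lower in the PABP1 IP by a log2 difference of -1.01 ± 0.17 (adjusted p = 0.00565). Its second probe gave -1.03 there, but 2.33 in the GFP IP against input where the brightest probe gave -0.61, both past the threshold. Sf3b2 was lower in the PABP1 IP (-1.14 ± 0.20, adjusted p = 0.00729; 0.054 without input replicate 1) and in the GFP IP (-0.97 ± 0.20, adjusted p = 0.013; 0.0525 to 0.0866 without either input array or GFP IP replicate 1). Sf3a3 was lower in the PABP1 IP (-1.11 ± 0.17, adjusted p = 0.00421). With spike-in scaling the PABP1 IP values of Sf3a1, Sf3b2 and Sf3a3 turned to 1.25, 1.13 and 1.16. The GFP IP calls of Sf3a1 and Sf3b2 were also lost with normexp background, after cyclic loess and under scaling to the median of all probes or to spike-in controls. That of Sf3a1 was lost as well after quantile normalization, without the filter on dim probes and with any input or GFP IP array left out. Sf3b3, measured on 1 GFP IP array, was at 4.40 and 3.97 in input, 2.86 and 3.18 in the PABP1 IP and 6.84 in the GFP IP. Its brightest probe gave 0.71 ± 0.21 in the GFP IP against input (adjusted p = 0.0486; 0.0509 to 0.189 with an array left out, and not past with spike-in scaling, with no filter on dim probes, with the slide as a block or with a replicate block), whereas the other probes gave -2.15 and -2.51. Sf3a2 and Sf3b4 were not past the threshold against input, and Sf3a2 was lower in the GFP IP than in the PABP1 IP (-1.28 ± 0.28, adjusted p = 0.011; not past after cyclic loess or with the median of all probes).

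The 10 genes of the tri-snRNP and the later PRPF factors had medians relative to all genes of -0.88 (PABP1 IP), 0.12 (GFP IP) and 0.85 (between the IPs). Of all genes 23.5% were lower in the PABP1 IP and 37.2% in the GFP IP. No member of the group was higher in the PABP1 IP, against 30.4% of all genes. Against input 6 were lower and 4 not past there (median -0.75), but with spike-in scaling 7 were higher and 0 lower (median 1.51), and 3 were lower without input replicate 1. In the GFP IP against input 3 were higher, 4 lower and 3 not past (median -0.40, and 0.05 to 0.62 after cyclic loess, with the median of all probes and under spike-in scaling), with 1 higher and 2 lower without input replicate 1 and 2 and 2 without input replicate 2. Against the PABP1 IP 4 were higher, 1 lower and 5 not past (median 0.24, but -1.01 with 1 higher and 4 lower with spike-in scaling), with 7 higher and 0 lower after cyclic loess and 0 lower without GFP IP replicate 1.

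Prpf8, the scaffold at the heart of the U5 snRNP and of the active spliceosome, was at 8.35 and 8.63 in input, 4.13 and 3.66 in the PABP1 IP and 7.78 and 8.28 in the GFP IP. The GFP IP lay just below input and the PABP1 IP well below both. It was 2.18-fold lower in the PABP1 IP than in input (-1.13 ± 0.16, adjusted p = 0.00322), differed by -0.08 ± 0.16 between the GFP IP and input (adjusted p = 0.675), and was 2.06-fold higher in the GFP IP than in the PABP1 IP (1.04 ± 0.16, adjusted p = 0.00295). Spike-in scaling turned the first to 1.14 and the last to -0.20. Prpf6, which bridges the U5 and U4/U6 particles, was at 51.1 and 46.4 in input, 14.5 and 14.2 in the PABP1 IP and 18.2 and 15.8 in the GFP IP, lower than input in both (-1.76 ± 0.16, adjusted p = 0.00124, and -1.52 ± 0.16, adjusted p = 0.00233). Prpf3, a U4/U6 protein, had differences of -1.47 ± 0.27 (adjusted p = 0.00756) and -1.38 ± 0.27 (adjusted p = 0.00982; 0.0524 without input replicate 1 and 0.0566 without input replicate 2). In the PABP1 IP spike-in scaling turned Prpf6 to 0.50 and Prpf3 to 0.80, and in the GFP IP it left them at -0.50 and -0.36, not past the threshold. Prpf4, the partner of PRPF3, was lower in the PABP1 IP (-0.75 ± 0.19, adjusted p = 0.0205; 0.0689 to 0.108 without either input array or PABP1 IP replicate 2). That call was also lost with normexp background, under all-probe median scaling, without the filter on dim probes and within slide 1. Spike-in scaling turned it to 1.51.

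Prpf31, a U4/U6 protein known for its retinitis pigmentosa mutations, was at 109 and 96.7 in input, 53.2 and 36.8 in the PABP1 IP and 20.6 and 22.8 in the GFP IP. The groups stepped down in that order without overlap. It was 4.74-fold lower in the GFP IP than in input (-2.25 ± 0.23, adjusted p = 0.0022; -1.23 and not past with spike-in scaling) and 2.32-fold lower in the PABP1 IP (-1.21 ± 0.23, adjusted p = 0.0084; 0.0569 without input replicate 1, and turned to 1.05 with spike-in scaling). A second Prpf31 probe gave -0.12 ± 0.18 and 2.52 ± 0.18 for these differences, the latter past the threshold in the opposite direction, and the mean of the probes gave 0.65 in the PABP1 IP.

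Some PRPF genes were higher in the GFP IP. Prpf18, a factor of the second catalytic step, was at 3.25 and 3.55 in input, 1.94 and 2.11 in the PABP1 IP and 7.85 and 7.12 in the GFP IP. In the GFP IP it was 2.20-fold above input (1.14 ± 0.16, adjusted p = 0.00392), a call that held under every alternative tried, and 3.69-fold higher than in the PABP1 IP (1.88 ± 0.16, adjusted p = 0.000581; not past with spike-in scaling). Its other probes gave 1.22 ± 0.26 and 1.45 ± 0.64 in the GFP IP against input, the latter not past the threshold (adjusted p = 0.108). Between the IPs these probes gave 1.68 and 1.03, the latter not past the threshold. In the PABP1 IP against input they gave -0.46 and 0.42, neither past the threshold. In the PABP1 IP Prpf18 was at -0.75 ± 0.16 (adjusted p = 0.0124; 0.0501 to 0.0925 without either input array or PABP1 IP replicate 1). That call was also lost with normexp background, under all-probe median scaling, without the filter on dim probes and by the mean of the probes. Spike-in scaling turned it to 1.52. Prpf4b, a protein kinase of the spliceosome, was at 0.316 and 0.370 in input, 0.25 and 0.264 in the PABP1 IP and 0.722 and 1.05 in the GFP IP, a difference of 1.35 ± 0.23 from input (adjusted p = 0.00686; 0.0517 without input replicate 1) and of 1.76 ± 0.23 from the PABP1 IP (adjusted p = 0.00191; not past with spike-in scaling). Its other probes gave 0.84 and -0.32 against input, neither past the threshold, and the mean of the probes gave 0.51 (adjusted p = 0.207). Between the IPs they gave 1.81 and 3.51, both past it. Prpf38b was the dimmest and least reproducible of them, at 0.105 and 0.129 in input, 0.0465 and 0.156 in the PABP1 IP and 0.829 and 0.377 in the GFP IP. It was well above background on 1 input array, 1 PABP1 IP array and both GFP IP arrays. Its difference from input was 2.27 ± 0.66 in the GFP IP (adjusted p = 0.0351; 0.0956 to 0.138 without either input array or GFP IP replicate 1, and not past with normexp background or with a replicate block). Between the IPs it was 2.71 ± 0.66 (adjusted p = 0.0166; 0.0699 without GFP IP replicate 1). Prpf19, the ubiquitin ligase that gives the Prp19 complex its name, differed by -0.21 ± 0.21 in the PABP1 IP (adjusted p = 0.455) and by -0.67 ± 0.21 in the GFP IP (adjusted p = 0.0443; 0.0542 to 0.175 without any 1 array other than GFP IP replicate 1). That call was also lost with normexp background, without the filter on dim probes, after cyclic loess and under all-probe median scaling. Spike-in scaling turned it to 0.35. Prpf38a was not past the threshold in any comparison.

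The gap between the ring genes and the PRPF genes can be read within each array, where no scaling by a constant moves it. Taking each gene relative to its input mean, the median of the 15 ring genes (Sm and LSM2 to LSM8) minus the median of the 10 tri-snRNP and later PRPF genes was 2.93 and 2.68 on the PABP1 IP arrays and 0.91 and 1.04 on the GFP IP arrays. The input arrays gave 0.06 and -0.06, which are near 0 by construction. The gap was thus positive on all 4 IP arrays and larger on both PABP1 IP arrays than on either GFP IP array; these groups were set beside each other with the values known, and no test was made.

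**Figure D3:**
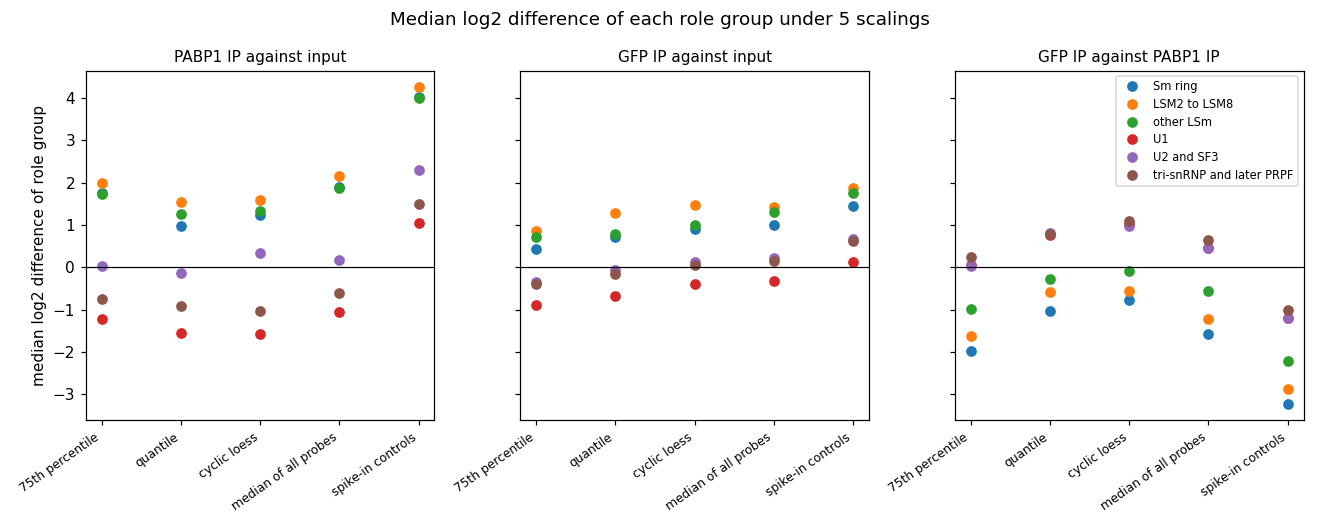
Median log2 difference of each role group (y axis) under the 75th percentile scaling used in the text and 4 other scalings (x axis), for the 3 comparisons. In the left panel the Sm and LSm medians lie above 0 under all 5 scalings, whereas the U1 and PRPF medians lie below 0 under 4 and above 0 with spike-in controls; their order below the Sm and LSm medians is the same under all 5.

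Several genes had probes that did not agree. Of the 46 members 20 had more than 1 kept probe, and for 13 of these the probes had opposite signs in at least 1 comparison: 5 in the PABP1 IP against input, 7 in the GFP IP against input and 3 between the IPs. The widest such gaps were those of Prpf31 in the PABP1 IP (-1.21 and 2.52) and of Sf3b3 (0.71 and -2.51) and Sf3a1 (-0.61 and 2.33) in the GFP IP against input. Probes of the same sign also differed in size, most for Sf3b3 in the PABP1 IP against input. Its brightest probe gave -0.47, not past the threshold, and its others -5.0 and -3.29, both past it. Prpf4b gave -0.41, -0.97 and -3.82 there and Prpf38b -0.45 and -2.74, with only -3.82 and -2.74 past the threshold. The probes of Prpf8, Sf3b1 and Sf3a1 also had the same sign there, at -1.13 and -1.0, -2.52 and -1.79, and -1.01 and -1.03. For Snrpf the 2 probes gave 1.73 and 1.62 there, and for Lsm6 the 4 probes gave 0.89 to 2.15. Between the IPs the brightest Lsm6 probe gave -0.92, past the threshold, and the others 0.07, -0.78 and -0.16, not past it. The scanner files do not give the probes' sequences, so that which transcript form each probe reads was not tested.

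**Figure D4:**
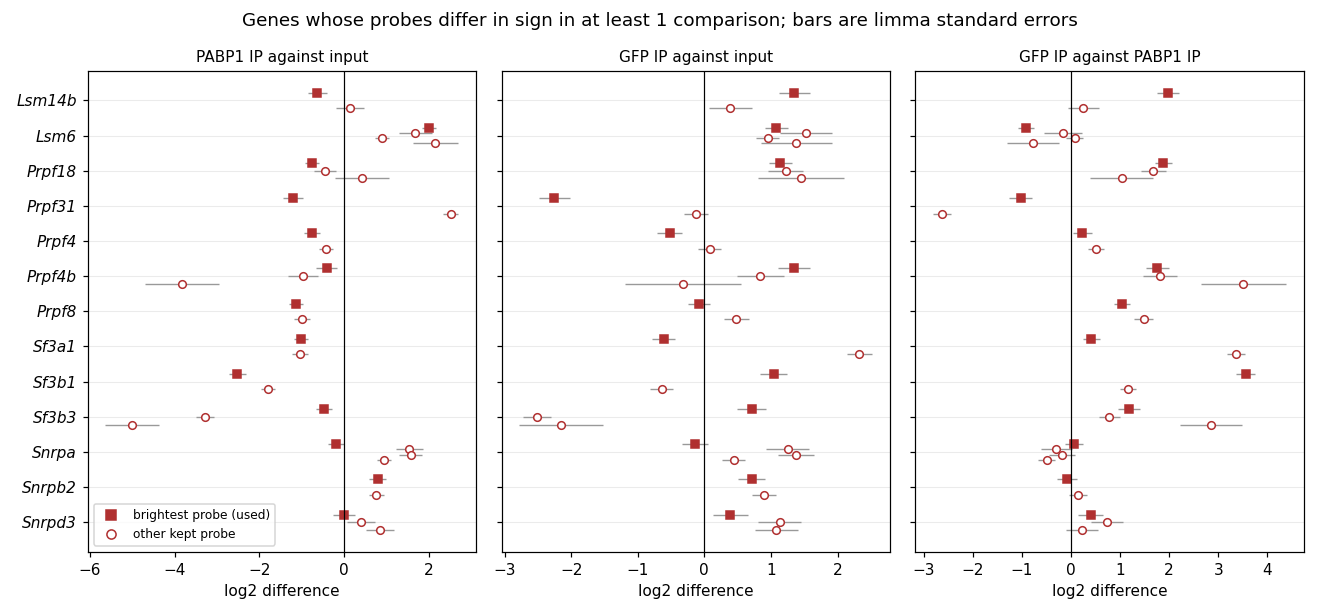
Log2 difference (x axis) from each kept probe of the 13 genes whose probes had opposite signs in at least 1 comparison (y axis), for the 3 comparisons. Filled squares are the brightest probe, the one used in the text, open circles are the other kept probes and bars are limma standard errors. The squares and circles of Prpf31, Sf3a1, Sf3b1 and Sf3b3 lie on opposite sides of 0 in 1 panel each.

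Other genes of the pathway were taken from a list of spliceosome genes outside the name rule, 57 of whose 60 were tested. In the PABP1 IP against input 16 were higher, 19 lower and 22 not past, with a median of -0.26. For all genes it was 0.13, with 30.4% higher and 23.5% lower. Against input in the GFP IP, 10 were higher, 21 lower and 26 not past, with a median of -0.37. All genes had a lower median there, -0.52, with 18.2% higher and 37.2% lower. Between the IPs 19 were higher, 23 lower and 15 not past, with a median of -0.27. For all genes it was -0.61, with 21.9% higher and 42.1% lower. Of 21 tested genes for the assembly of snRNPs, such as the SMN complex and the arginine methylation of Sm proteins, 8 were higher and 7 lower in the PABP1 IP, 3 higher and 10 lower in the GFP IP, and 5 higher and 11 lower between the IPs, with medians of 0.15, -0.35 and -0.67 against the same 0.13, -0.52 and -0.61 for all genes.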

How the data were processed

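The values used are the deposited spot intensity from which Agilent Feature Extraction 9.1.3.1 had subtracted background, per the file headers, with its flags for spots above background, saturation and outliers. The authors' table of group means was not used. Control and outlier spots were left out, spots of a probe were averaged as log2 processed signal, and the 75th percentile of each array was subtracted. A gene was read by its probe of highest mean signal and kept if some group had that probe well above background on each of its arrays. Groups were compared by lmFit and eBayes of limma 3.58.1 (R 4.3.3), with the 6 arrays in one fit and no covariate, two-sided, with Benjamini-Hochberg adjustment over 14973 genes and a threshold of 0.05. Members, role groups, gene lists and the rule for named genes (up to 2 members per direction, comparison and role group with the largest difference past the threshold, any gene whose probes differed in sign, and a fixed set of 8) were chosen with earlier results of these data known; the remaining members are named to account for the set, except 1 that is counted but not reported here. Current symbols came from a RefSeq table (GRCm38.p6). Alternatives covered background, scaling, the filter, probes, slide, replicate block and leaving out each array. The fit was tested on simulated data.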

Additional observations from a re-analysis of the deposited data

How the results depend on the processing

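The 2 arrays per group limit every p-value here, and spike-in scaling turned most directions that were lower in the PABP1 IP. Whether the spike-ins were added per amount of RNA is not known from the sources used. The U1 and PRPF medians there stayed below 0 after quantile normalization, after cyclic loess and under all-probe median scaling. The medians of all genes in the PABP1 IP against input, the GFP IP against input and between the IPs were 0.06, -0.25 and -0.28 after quantile normalization, -0.02, -0.12 and -0.06 after cyclic loess, 0.28, 0.04 and -0.20 under all-probe median scaling and 2.40, 0.50 and -1.86 under spike-in scaling. Calls held in every alternative for 16 of 36 members in the PABP1 IP against input, 4 of 32 in the GFP IP against input and 12 of 28 between the IPs, and the sign held for 25, 26 and 23.

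In the GFP IP against input, 8294 genes were past the threshold, 5363 under all-probe median scaling, 4325 under spike-in scaling, 14960 with no filter on dim probes and 4191 to 8447 with 1 array left out. Members higher were 12 instead of 19 with a replicate block and 6 to 17 with 1 array left out. Members lower were 8 with normexp background instead of 13, 6 after cyclic loess, 5 under all-probe median scaling, 0 under spike-in scaling and 5 to 13 with 1 array left out. The members' median relative to all genes was 0.82 with normexp and 1.05 with no filter, instead of 0.50. With no filter, dim genes outside the 14973 of the main fit were tested as well. The 14960 genes past the threshold there are therefore not a share of those 14973. In the PABP1 IP against input, 8083 genes were past the threshold, 12974 under spike-in scaling and 5057 to 7986 with 1 array left out; members higher were 39 and members lower 0 under spike-in scaling, members lower were 9 to 15 with 1 array left out, and the relative median was 0.23 after quantile normalization, 1.09 with no filter, 0.17 with the slide as a block, 0.27 within slide 1 and 0.27 to 0.57 with 1 array left out, instead of 0.47. Between the IPs, members higher were 21 after quantile normalization, 21 after cyclic loess and 3 under spike-in scaling instead of 9, members lower were 12 after cyclic loess, 12 under all-probe median scaling and 31 under spike-in scaling instead of 19, and the relative median was 0.21 with no filter and 0.10 to 0.48 with 1 array left out, instead of 0.44. The causes were not tested.

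The following log2 differences had the opposite sign to the reported one; of differences not past the threshold not all that turned are listed (Prpf8 in the GFP IP against input, at 0.94 under spike-in scaling, is another). After quantile normalization, between the IPs: Lsm3 0.85, Snrp70 1.01, Snrpb2 0.85, Snrpd1 0.62. After cyclic loess, in the GFP IP against input: Lsm4 0.05, and between the IPs: Lsm3 0.77, Lsm6 0.05, Prpf31 0.02, Snrp70 1.15, Snrpb2 0.98, Snrpd1 0.83. Under spike-in scaling, in the GFP IP against input: Lsm4 0.17, Prpf19 0.35, Prpf40b 0.42, Sf3a1 0.42, Sf3b2 0.05; in the PABP1 IP against input: Lsm14b 1.64, Prpf18 1.52, Prpf19 2.06, Prpf3 0.80, Prpf31 1.05, Prpf38b 1.81, Prpf4 1.51, Prpf40b 1.28, Prpf4b 1.85, Prpf6 0.50, Prpf8 1.14, Sf3a1 1.25, Sf3a3 1.16, Sf3b2 1.13, Sf3b3 1.79, Snrp70 0.84, Snrpa 2.06, Snrpd3 2.26; and between the IPs: Prpf3 -1.16, Prpf39 -1.19, Prpf8 -0.20, Sf3a3 -0.44, Sf3b3 -0.43, Snrpa -1.18. With the mean of a gene's probes, in the GFP IP against input: Sf3a1 0.86, Sf3b3 -1.85, Snrpa 0.73, and in the PABP1 IP against input: Prpf31 0.65, Snrpa 0.96.

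The labels do not say whether arrays of the same number share a culture or lysate, and 2 replicates do not settle it: their deviations correlated at 0.20 (PABP1 IP and input), -0.06 (GFP IP and input) and -0.65 (the IPs, whose same-numbered arrays lay on different slides). With the replicate number as a block 7094, 7100 and 8635 genes were past the threshold in the PABP1 IP against input, the GFP IP against input and between the IPs. A crossed pairing of the IPs, chosen after seeing the data, called 11738 genes, with 9 members higher and 20 lower.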
